A study of Homo sapiens with 12 samples.

Results

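Transcription after induction of MYC together with MED30 was described in 4 of the 12 PRO-seq libraries of the series. The members were taken by their labels: 2 libraries of a Mia PaCa-2 line treated with Dox (Dox 1 and Dox 2, named OE in the labels) and 2 libraries of the same line without it (control 1 and control 2). Mia PaCa-2 is a cell line from a human pancreatic carcinoma. Both arms carried integrated Dox-inducible MED30 and MYC-3xHA constructs in a pTEPRT vector, so that the arms differed in Dox (0.5 μg/ml) and in nothing else that the labels give. The methods give 1 day of induction, while another passage of the same source gives a longer one. Cells without the constructs were not among these groups, so Dox and the induced factors cannot be told apart, and it is not stated whether the line is 1 clone. Replicates are not described as separate cultures, so the p-values below cover only how far libraries differed from each other, which may be technical. Their estimate of spread was shared with 4 libraries labelled MYC, with and without Dox, which are described at the end.

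Precision run-on sequencing (PRO-seq) maps RNA polymerases engaged on genes, through the RNA that they go on making in nuclei outside the cell. MYC is a transcription factor that pairs with MAX, binds E-boxes and is known for driving growth, ribosome production and cell division, with the MXD proteins and MNT as opponents on the same sites. Mediator is a complex of many subunits that links transcription factors to RNA polymerase II, and MED30 is one of its metazoan subunits. Both genes lie on the long arm of chromosome 8 and are often gained together in carcinomas.

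The libraries held 26454618 counts in control 1, 1257499 in control 2, 20616713 in Dox 1 and 27601388 in Dox 2. The other libraries were thus 16.4 to 21.9 times deeper than control 2, in which 1947 of the 19318 genes tested were at 0, against 64 to 107 in the other libraries. The counts over all genes and over the main gene lists are therefore also given against control 1 alone. The ribosomal gene RNA28SN5 took 0.666% to 0.825% of counts. Of the markers of the line, VIM, KRT8, KRT18 and ZEB1 were detected, while CDKN2A and MTAP, which Mia PaCa-2 lacks, had 13 and 53 counts over the 4 libraries. Of 27 markers of other cell types, CD3D, HBB, INS, GCG, ACTC1 and MYOD1 were at 0, while SNAP25 (58.8 to 103.3 CPM), CD68 (30.04 to 38.2 CPM), RBFOX3 (5.798 to 9.60 CPM), CPA1 (2.94 to 6.84 CPM) and CDH5 (2.90 to 5.84 CPM) had the most counts. CD3E and HBA1 had 4 and 35 counts over the 4 libraries. All 27 markers together summed to 163 and 168 CPM in the controls and 124 and 116 CPM in the Dox libraries.

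Counts over both MYC and MED30 rose with Dox. MYC (chr8:127735434-127742951, GRCh38) was at 279 and 300 CPM (counts over the TMM-scaled library size) in controls 1 and 2 and at 659 and 623 CPM in Dox 1 and 2. MED30 (chr8:117520713-117540262) was at 53.6 and 58.1 CPM in the controls and at 1482 and 1526 CPM with Dox. Neither gene's groups overlapped. The log2 fold change was 1.16 ± 0.10 (SE) for MYC and 4.78 ± 0.14 for MED30, with adjusted p = 1.89e-09 and 1.75e-21 in edgeR's quasi-likelihood test, and 1.20 and 4.81 against control 1 alone. On the linear scale MYC rose 2.23-fold and MED30 27.6-fold. Counts over a gene hold reads of both the integrated copy and the cell's own gene, which were not separated. The values are relative to each library's total, so a change that all genes share would not be seen.

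Of 19318 genes tested, 706 rose (3.65%) and 596 fell (3.09%), together 6.74%, at an adjusted p under 0.05. The share of rises among the calls was 54.2%, and DESeq2 on the 4 libraries alone called 213 rises and 466 falls, a share of 31.4%, and on all 8 libraries of the fit 394 and 596, a share of 39.8%. An unadjusted p under 0.05 in edgeR was found for 3731 of the 19318 genes, in either direction. The unadjusted counts of list members below are to be read beside it. Most changes were small. The median log2 fold change was 0.65 among the genes that rose and -0.50 among those that fell, against 0.02 over all genes. More than 2-fold changes were found for 193 genes that rose and 44 that fell, and more than 4-fold changes for 56 and 6. Of the genes that rose, 20 had 3 or fewer counts over both controls, so the size of their fitted change rests on the prior count, and none of the genes that fell did.

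**Figure D1:**
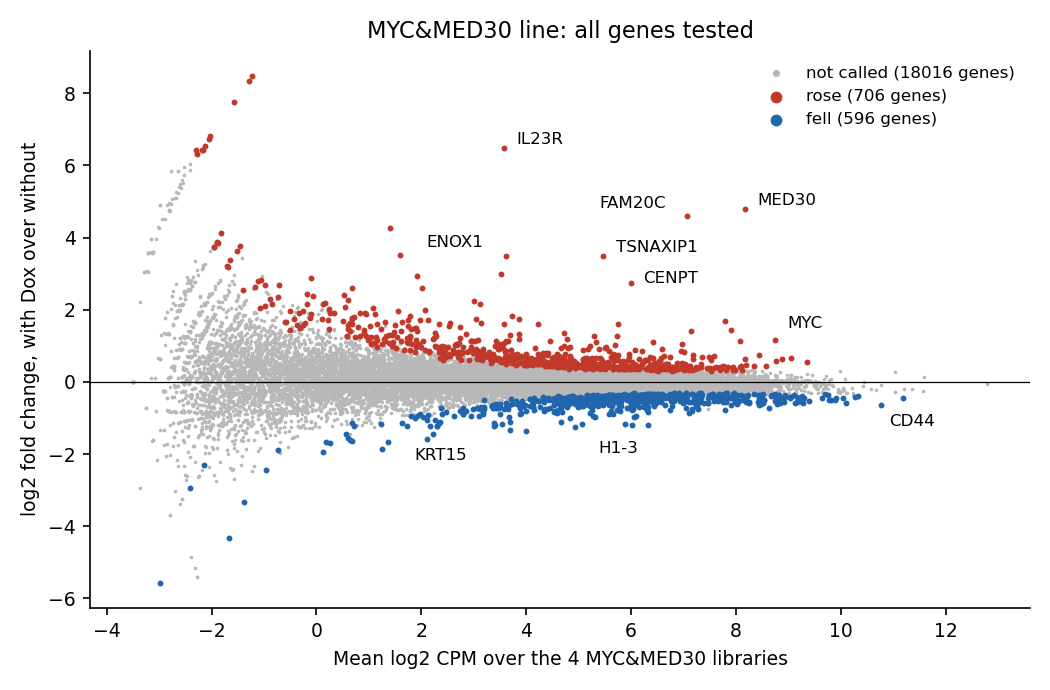
Log2 fold change with Dox (vertical axis) against the mean log2 CPM over the 4 libraries (horizontal axis), with 1 point for each of the 19318 genes tested; red points rose and blue points fell. MED30, IL23R and FAM20C lie far above all genes of like level, and the falls stay small, with CD44 and H1-3 marked.

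The calls leaned on control 1. Against control 1 alone, 604 genes rose (3.05%) and 718 fell (3.62%) of 19814 tested, and 547 in each direction (2.83% each) were called in both fits. Without control 1, against the shallow control 2, 121 rose and 45 fell, and the median of all genes moved to 0.17. Without Dox 1, 399 rose and 283 fell, and without Dox 2, 380 and 243. The libraries labelled MYC, described at the end, share the estimate of spread: without the first of their Dox libraries 1134 rose and 992 fell, and without the second 1198 and 1212. Among called genes with at least 10 counts in control 2, the mean of the Dox libraries lay above control 2 for 464 of 470 genes that rose and below it for 553 of 562 that fell. The median log2 ratio over control 2 was 0.59 for the former and -0.41 for the latter, against 0.50 and -0.53 over control 1. Since both controls had entered the calls, these counts are a description. Medians of gene lists given below without control 1 are to be read beside the 0.17 of all genes in that fit.

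**Figure D2:**
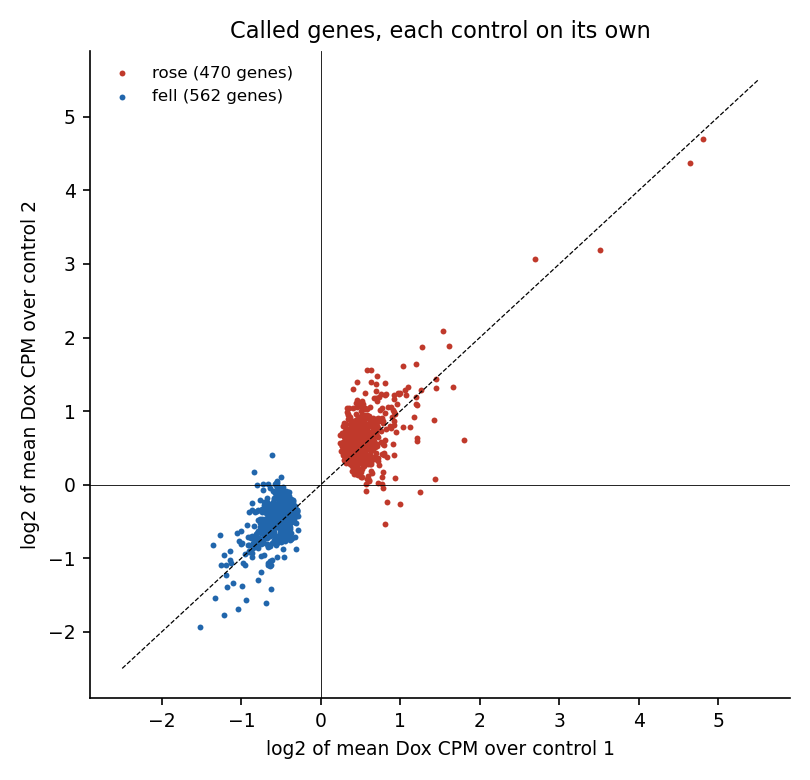
Log2 ratio of the mean Dox CPM to control 1 (horizontal axis) and to control 2 (vertical axis) for the 470 genes that rose (red) and the 562 that fell (blue) with at least 10 counts in control 2; the dashed line marks equality. Nearly all points lie in the same quadrant for both controls, with a wider scatter along the axis of control 2.

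A short set of genes rose far beyond the rest. IL23R (chr1:67138907-67259979), the receptor subunit for interleukin-23, had 1.45 and 0.735 CPM in the controls and 126 CPM in both Dox libraries, a log2 fold change of 6.48 ± 0.18 (adjusted p = 7.5e-22). FAM20C, a kinase that phosphorylates secreted proteins, went from 25.5 and 30.9 CPM to 626 and 650 CPM, or 24.2-fold. ENOX1, a cell-surface oxidase, had 3.88 and 2.94 CPM without Dox and 42.9 and 43.6 CPM with it. In all 3 the Dox libraries agreed closely and lay more than 10-fold above the higher control. TSNAXIP1, named for its partner translin-associated factor X, rose from 12.3 and 15.4 CPM to 138 and 144 CPM, and its neighbour CENPT, a centromere protein, from 26.6 and 20.6 CPM to 172 and 173 CPM. The third gene of that stretch of chromosome 16, NUTF2, which carries RAN into the nucleus, rose less, with a log2 fold change of 0.65 ± 0.10.

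Further large rises among genes with a mean log2 CPM above 2 were those of EVA1C (2.98), LINC01060 (2.60), MRVI1 (2.25), GALNT16 (2.17), CDH15 (2.00) and CREB3L3 (1.82). All of them were also called against control 1 alone. Control 2 held 8 or fewer counts of each, so their controls rest mainly on control 1. GALNT16 is an enzyme that starts O-linked glycans, CDH15 a cadherin of muscle, and CREB3L3 a membrane-bound transcription factor known from liver.

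Of other genes that the study singled out, IRAK2, a kinase below the interleukin-1 and Toll-like receptors, rose from 49.8 and 43.4 CPM to 69.6 and 74.0 CPM (log2 fold change 0.57 ± 0.12, adjusted p = 0.00204). CYSTM1 rose from 110.8 and 98.5 CPM to 159 and 139 CPM (0.47 ± 0.10). For both genes the Dox libraries lay above both controls, and the calls held against control 1 alone. Without control 1 neither was called (adjusted p = 0.106 for IRAK2 and 0.0597 for CYSTM1), nor was CYSTM1 without Dox 1 (adjusted p = 0.157). FUCA1 (0.36 ± 0.27), PURA (0.18 ± 0.15), IGIP (0.53 ± 0.25) and NRG2 (0.59 ± 0.21) had positive log2 fold changes that did not pass the test. PABPC1 (-0.11 ± 0.10) and PGK1 (-0.31 ± 0.11) did not pass it either, although PGK1 was called against control 1 alone (-0.45).

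**Figure D3:**
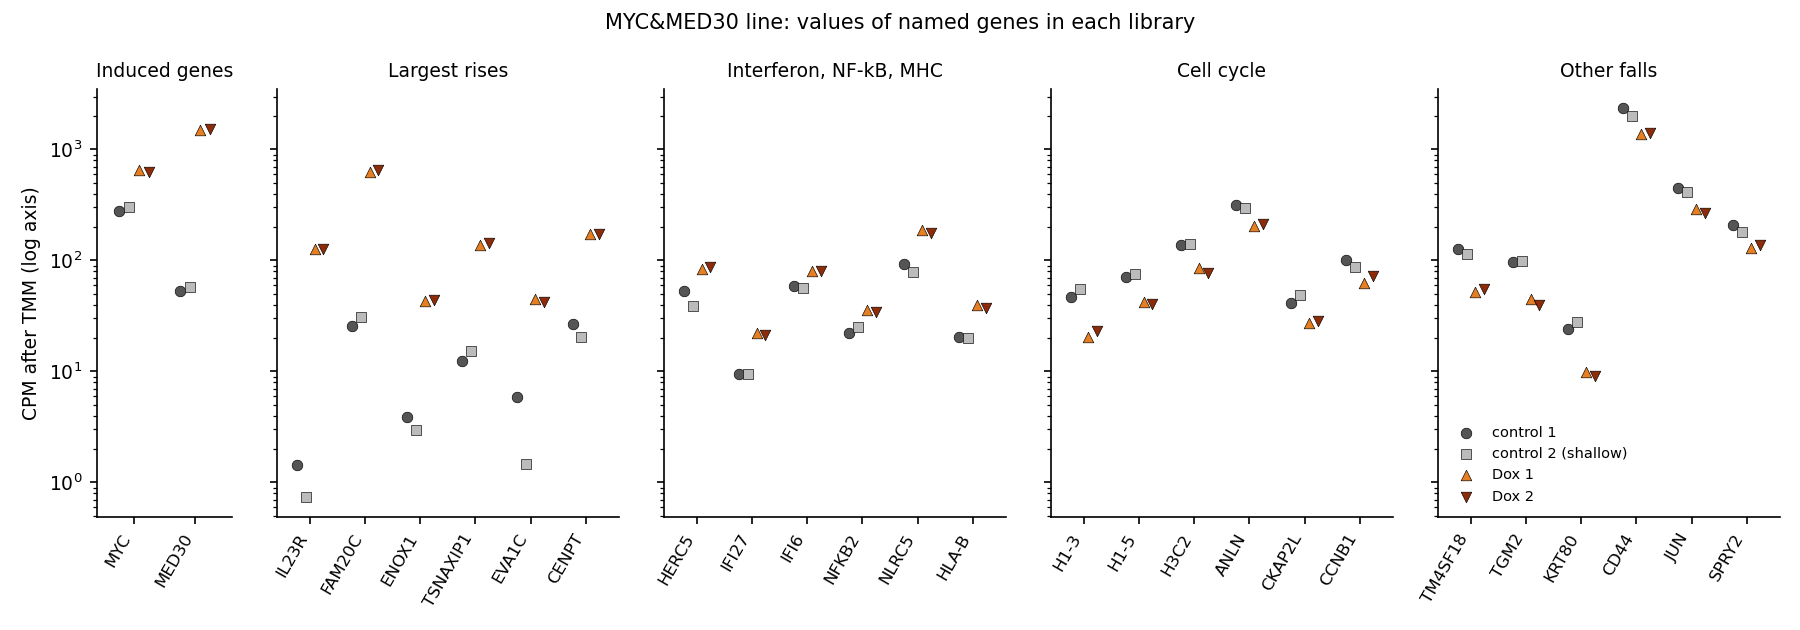
CPM after TMM scaling on a log axis, for 26 named genes in control 1 (circles), control 2 (squares), Dox 1 (upward triangles) and Dox 2 (downward triangles). In every gene drawn, both Dox libraries lie on the same side of both controls, and the 2 Dox libraries lie closer together than the gap to the controls. Genes were drawn from those called, so this largely follows from the choice: groups were apart for 688 of 706 rises and 578 of 596 falls.

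Replication-dependent histone genes fell more than any other list described here. These genes supply the histones that package new DNA in S phase. Of 49 members tested, 39 fell and 0 rose, with a median log2 fold change of -0.53. The sum over all 62 genes of the list, tested or not, was 3536 and 3510 CPM in the controls and 2515 and 2259 CPM with Dox. At an unadjusted p under 0.05 none lay higher in edgeR, and DESeq2 on the 4 libraries called 0 rises and 25 falls. Both Dox libraries lay below both controls for 41 members, against 17.1% of all genes tested. H1-3, a linker histone, fell from 46.6 and 55.2 CPM to 20.5 and 22.95 CPM (-1.16 ± 0.13, adjusted p = 4.41e-07). H3C2, a core histone H3 gene, fell from 137.2 and 141 CPM to 85.8 and 77.1 CPM (-0.77 ± 0.10). H1-5 (-0.81), H1-4 (-0.88), H4C8 (-0.78) and H2BC5 (-0.75) fell alike. Histone genes are near-identical copies of each other, so how reads were split among them is uncertain.

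The histone call was the same in direction with either control. With control 1 alone 37 members fell, with a median of -0.51, and without control 1 only 10 fell, although the median was -0.57. Without Dox 2, 17 fell. Fewer cells in S phase and less transcription of these genes per cell cannot be told apart in these bulk libraries, and the same holds for the other cell-cycle genes.

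Some genes of mitosis and the G2/M transition also fell. Of 70 tested, 24 fell and 0 rose, with a median of -0.26, and none lay higher at an unadjusted p under 0.05 in edgeR. DESeq2 on the 4 libraries called 13 falls and 0 rises, and edgeR with the replicate number as a block 14 and 0. ANLN, which builds the contractile ring of dividing cells, went from 317 and 298 CPM to 205 and 214 CPM (-0.56 ± 0.10, adjusted p = 0.000519). CKAP2L, a spindle protein, went from 41.2 and 48.5 CPM to 27.6 and 28.5 CPM (-0.61 ± 0.12). CCNB1, the cyclin of mitotic entry, went from 100.2 and 87.5 CPM to 62.9 and 72.4 CPM (-0.52 ± 0.11). The groups of all 3 were apart by more than the spread within either. AURKA (-0.48), CDK1 (-0.46), TOP2A (-0.41) and MKI67 (-0.46) fell by less. The fit on control 1 alone had 30 members falling, with a median of -0.33. Without control 1 none of the 70 was called and the median was -0.09, and without Dox 1 or Dox 2 6 and 11 fell. Without either Dox library labelled MYC, 36 and 37 fell.

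DNA replication and E2F target genes moved less as a list, with 8 of 69 falling, 1 rising and a median of -0.16. RRM2, a subunit of the reductase that makes deoxynucleotides, fell (-0.52 ± 0.10), as did the origin factor ORC1 (-0.54) and the helicase subunits MCM4 (-0.50) and MCM5 (-0.56). POLA1, the catalytic subunit of the polymerase that primes DNA synthesis, went the other way, from 432 and 415 CPM to 646 and 689 CPM (0.65 ± 0.10, adjusted p = 9.16e-05). POLA1 lay above both controls in both Dox libraries. Without control 1, 0 members fell and POLA1 was still called. The falls numbered 3 without Dox 1, 2 without Dox 2, 5 without either control labelled MYC, and 17 and 19 without the first and the second Dox library labelled MYC. The number that fell against control 1 alone was 7.

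The promoters of the falling cell-cycle genes share known sequence elements. They were read from RefSeq (GRCh38.p14), 250 bases before to 50 bases after each start, 5′ to 3′ on the gene's strand. The first pair, of histone genes, shows the CCAAT box and the TATAAA box in capitals. The promoter of CKAP2L shows CCAAT and TTTGAA, the core of the cell cycle homology region of G2/M genes, or their reverse complements, in capitals.
H1-3 (chr6:26234938-26235237, minus strand): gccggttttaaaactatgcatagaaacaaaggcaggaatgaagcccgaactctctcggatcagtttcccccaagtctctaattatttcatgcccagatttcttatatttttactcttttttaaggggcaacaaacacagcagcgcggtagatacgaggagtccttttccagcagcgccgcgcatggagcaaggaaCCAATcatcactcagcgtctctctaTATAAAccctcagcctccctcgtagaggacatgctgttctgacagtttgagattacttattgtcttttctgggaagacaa
H3C2 (chr6:26032050-26032349, minus strand): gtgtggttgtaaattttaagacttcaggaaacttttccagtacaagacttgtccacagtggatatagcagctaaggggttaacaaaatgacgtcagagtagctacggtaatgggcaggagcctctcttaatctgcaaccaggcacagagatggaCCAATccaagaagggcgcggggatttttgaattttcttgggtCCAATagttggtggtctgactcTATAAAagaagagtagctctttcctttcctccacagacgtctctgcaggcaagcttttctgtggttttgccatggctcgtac
CKAP2L (chr2:112764560-112764859, minus strand): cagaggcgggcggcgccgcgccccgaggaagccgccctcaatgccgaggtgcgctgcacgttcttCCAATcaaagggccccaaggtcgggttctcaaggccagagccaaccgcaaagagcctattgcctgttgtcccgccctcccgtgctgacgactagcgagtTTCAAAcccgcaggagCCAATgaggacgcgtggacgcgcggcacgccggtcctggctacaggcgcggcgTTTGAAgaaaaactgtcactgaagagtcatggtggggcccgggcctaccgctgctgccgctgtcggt

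TATAAA was present on either strand in 26 of the 36 falling histone genes with a promoter sequence (72.2%), against 7.41% of the tested genes. The 44 tested histone promoters held it at about the same share (72.7%), so it marks the gene family and not its fallers. TTTGAA was present in 16 of 21 falling mitosis genes (76.2%) and in 63.3% of all tested members of that list, against 11.2% of tested genes. CCAAT was present in 76.2% of the falling mitosis genes and 88.9% of the falling histone genes, against 36.0% of tested genes. Over all called genes, TTTGAA was found in 20.0% of promoters of genes that fell and in 7.21% of those that rose. A match to these letters is no evidence of binding, and CCAAT and TTTGAA were searched after the falls had been seen.

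Some interferon response genes rose, by small amounts, and none fell. These are the antiviral genes that interferon receptors switch on through STAT and IRF factors. Of 66 tested, 20 rose and 0 fell, with a median log2 fold change of 0.32. The sum over all 68 genes of the list, tested or not, was 5604 and 4873 CPM in the controls and 6447 and 6575 CPM with Dox. At an unadjusted p under 0.05, 39 lay higher and 2 lower in edgeR, and DESeq2 on the 4 libraries called 17 rises and 0 falls. Both Dox libraries lay above both controls for 55 members, against 26.8% of all genes tested. HERC5, the ligase that attaches ISG15, rose from 52.5 and 39.0 CPM to 83.2 and 87.5 CPM (0.78 ± 0.12, adjusted p = 6.34e-05). IFI27, a mitochondrial interferon-induced protein, rose from 9.52 and 9.56 CPM to 22.4 and 21.3 CPM (1.20 ± 0.19). IRF1, itself a factor of the response, rose from 79.9 and 64.7 CPM to 117 and 102 CPM (0.53 ± 0.11). The groups did not overlap in any of the 3. The synthetases OAS1 (0.42), OAS2 (0.49) and OAS3 (0.46), which sense double-stranded RNA and are neighbours on chromosome 12, all rose, as did ISG20 (0.48) and IFI6 (0.46).

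The median of the interferon list was above 0 whichever library was left out. Against control 1 alone 17 of 66 rose, with a median of 0.26, and none fell. Without control 1, 6 rose, with a median of 0.51, and without Dox 1 or Dox 2, 10 and 8 rose. Without either Dox library labelled MYC 30 rose. MHC class I genes, which present peptides to T cells, had 3 of 21 members rising and 0 falling, with a median of 0.22. NLRC5, the transactivator of these genes, rose from 92.6 and 77.9 CPM to 189.9 and 178 CPM (1.05 ± 0.10, adjusted p = 1.58e-08). HLA-B rose from 20.3 and 19.9 CPM to 39.7 and 37.6 CPM (0.93 ± 0.14). The same 3 rose against control 1 alone, while without control 1 only 1 did.

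The promoters of HERC5 and IFI6 show the core of the interferon-stimulated response element, GAAA, any 2 bases and GAAA, or its reverse complement, in capitals (RefSeq, GRCh38.p14).
HERC5 (chr4:88456869-88457168, plus strand): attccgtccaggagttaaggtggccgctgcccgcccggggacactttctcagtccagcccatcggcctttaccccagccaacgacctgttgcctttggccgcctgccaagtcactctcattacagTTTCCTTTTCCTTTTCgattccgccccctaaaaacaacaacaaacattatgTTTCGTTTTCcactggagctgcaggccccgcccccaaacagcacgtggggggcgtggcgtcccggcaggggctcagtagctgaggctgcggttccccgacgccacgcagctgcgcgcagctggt
IFI6 (chr1:27672143-27672442, minus strand): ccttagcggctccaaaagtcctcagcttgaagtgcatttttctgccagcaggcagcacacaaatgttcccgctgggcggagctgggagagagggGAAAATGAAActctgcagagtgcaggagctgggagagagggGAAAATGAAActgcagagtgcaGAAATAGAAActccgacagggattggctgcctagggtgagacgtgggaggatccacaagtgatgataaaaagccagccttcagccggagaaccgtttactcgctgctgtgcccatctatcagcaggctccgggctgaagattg

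This element was present in 11 of 16 rising interferon genes with a promoter sequence (68.8%) and in 65.4% of all tested members, against 3.01% of tested genes. Across all genes that rose it was present in 4.07% of promoters. It was searched after the rises had been seen.

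NF-kB factors and targets were split. NF-kB is a family of dimeric factors that switch on inflammatory and survival genes. Of 53 tested, 12 rose and 5 fell, with a median of 0.13, while DESeq2 on the 4 libraries called 4 rises and 4 falls. Subunit genes among the 12 that rose were NFKB2, RELB, REL and NFKB1, while the subunit gene RELA was not among them. NFKB2 went from 22.3 and 25 CPM to 35.6 and 34.3 CPM (0.62 ± 0.13, adjusted p = 0.00266), RELB rose by 0.53, REL by 0.46 and NFKB1 by 0.40. ZC3H12A, a nuclease that cuts inflammatory messages, rose from 27.2 and 33.8 CPM to 42.7 and 39.1 CPM (0.54 ± 0.12), and the inhibitor TNFAIP3 by 0.59. Some secreted products went down. CXCL1, a chemokine for neutrophils, fell from 43.6 and 43.4 CPM to 28.4 and 28.7 CPM (-0.61 ± 0.12), CSF3, the granulocyte growth factor, by 0.76, and CXCL8 by 0.41 on the log2 scale. For CXCL8 the Dox libraries, at 90.7 and 92.6 CPM, lay just below control 2 at 95.6 CPM and well below control 1 at 133 CPM.

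Against control 1 alone 10 NF-kB genes rose and 5 fell. TNFAIP3 was not called in that fit, and NFKB2, TNFAIP3 and ZC3H12A were not called by DESeq2 on the 4 libraries (adjusted p = 0.078, 0.154 and 0.2). Without control 1, 2 rose and 1 fell, and without Dox 1 or Dox 2, 4 and 7 rose. A kappaB-like motif, GGG and TTTCC with any 2 bases between, on either strand, was present in 4 of 10 rising NF-kB genes with a promoter (40.0%), in 31.0% of the tested list and in 2.09% of tested genes. Of 34 interleukin-1 and Toll-like receptor genes, IRAK2 rose and the receptor gene IL1R1 fell (-0.40 ± 0.10), with 32 not called. In the interleukin-12 and interleukin-23 pathway 3 of 10 rose: IL23R, IL12RB2 (0.43) and the kinase TYK2 (0.43), of which TYK2 was not called against control 1 alone. Among 22 inflammasome and gasdermin genes 2 rose and 0 fell. NLRP1, a sensor of the inflammasome, rose from 3.96 and 2.21 CPM to 9.37 and 12.8 CPM (1.56 ± 0.24). GSDMA rose from 0.313 CPM and 0 to 1.69 and 2.11 CPM. Both lay near the floor in control 2, where 3 counts equal 2.205 CPM, and DESeq2 on the 4 libraries called 0 rises in this list.

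Immediate early genes and feedback genes of the ERK pathway had more falls than rises. These genes respond within minutes to growth factors. Of 48 tested, 13 fell and 4 rose, with a median of -0.08. JUN, a subunit of AP-1, went from 450 and 413 CPM to 289 and 267 CPM (-0.65 ± 0.11, adjusted p = 0.000186). KLF6, a zinc finger factor, went from 786 and 741 CPM to 498 and 518 CPM (-0.59 ± 0.10). SPRY2, an inhibitor of receptor signalling, went from 208 and 179 CPM to 129.9 and 138 CPM (-0.56 ± 0.10). These 3 fell clear of both controls. PHLDA1 (-0.55), the phosphatase DUSP6 (-0.83) and the AP-1 subunit FOSL1 (-0.40) fell too. KLF4 (0.64 ± 0.12) and SPRED3 (0.60 ± 0.12) rose. With control 1 as the single control 12 fell and 3 rose. Without control 1, 1 fell and 0 rose, and without Dox 1 or Dox 2, 7 and 6 fell. Without either control labelled MYC 8 fell, and the replicate block also gave 8.

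The largest falls among genes with a mean log2 CPM above 2 were modest beside the largest rises. They were KRT15 (-1.59 ± 0.30), CACNG4 (-1.44), KRT80 (-1.37), KIAA1755 (-1.33), LOC100128317 (-1.25), BTBD16 (-1.24), LOC100506474 (-1.22), ZNF252P-AS1 (-1.22), ACKR3 (-1.21), TM4SF18 (-1.20), TGM2 (-1.20) and PMEPA1 (-1.20). KRT15 and KRT80 are keratins, CACNG4 is a subunit of calcium channels and AMPA receptors, and ACKR3 a scavenger receptor for chemokines. TM4SF18, a tetraspan membrane protein, fell from 127.5 and 114 CPM to 51.6 and 55.6 CPM, with adjusted p = 1.75e-09. TGM2, a transglutaminase that crosslinks proteins, fell from 96.5 and 99.3 CPM to 45.2 and 39.5 CPM, with adjusted p = 3.05e-09. These 12 genes were called against control 1 alone as well, as the rule for naming them required. Without control 1, 8 of the 12 were not called. Of these, BTBD16 was then at -0.53 (adjusted p = 0.76), LOC100506474 at -0.77 (adjusted p = 0.656), LOC100128317 at -0.80 (adjusted p = 0.296), CACNG4 at -0.96 (adjusted p = 0.479) and PMEPA1 at -0.95 (adjusted p = 0.233), and KRT15, ACKR3 and ZNF252P-AS1 were further down than with both controls. SNAP25, a marker of neurons on the list of other cell types, fell from 103.3 and 102.2 CPM to 61.3 and 58.8 CPM.

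Genes of the matrix, of epithelial-mesenchymal transition and of TGF-beta signalling had 9 of 51 members falling and 1 rising, with a median of -0.06. CD44, the hyaluronan receptor and one of the most heavily transcribed genes here, fell from 2342 and 2018 CPM to 1392 and 1409 CPM (-0.64 ± 0.11, adjusted p = 0.000403). VIM, the intermediate filament of mesenchymal cells, fell from 744 and 693 CPM to 477 and 513 CPM (-0.54 ± 0.11). TGFBI (-0.95) and the integrin gene ITGB1 (-0.41) fell as well. The keratin genes KRT8 (-0.47) and KRT18 (-0.53), which mark epithelium, fell with the mesenchymal ones. Of 33 YAP and TEAD genes 6 fell and 0 rose, with a median of -0.10. AMOTL2, an inhibitor of YAP, went from 170 and 173 CPM to 106 and 100.4 CPM (-0.73 ± 0.10), and NT5E (-0.54), CCN1 (-0.48) and the factor TEAD1 (-0.43) fell. In the fit on control 1 alone, 9 matrix and 8 YAP genes fell. Without control 1, 1 of each did and 1 YAP gene rose. The falls were 4 and 3 without Dox 1, 5 and 2 without Dox 2, and 6 and 4 without either control labelled MYC.

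**Figure D4:**
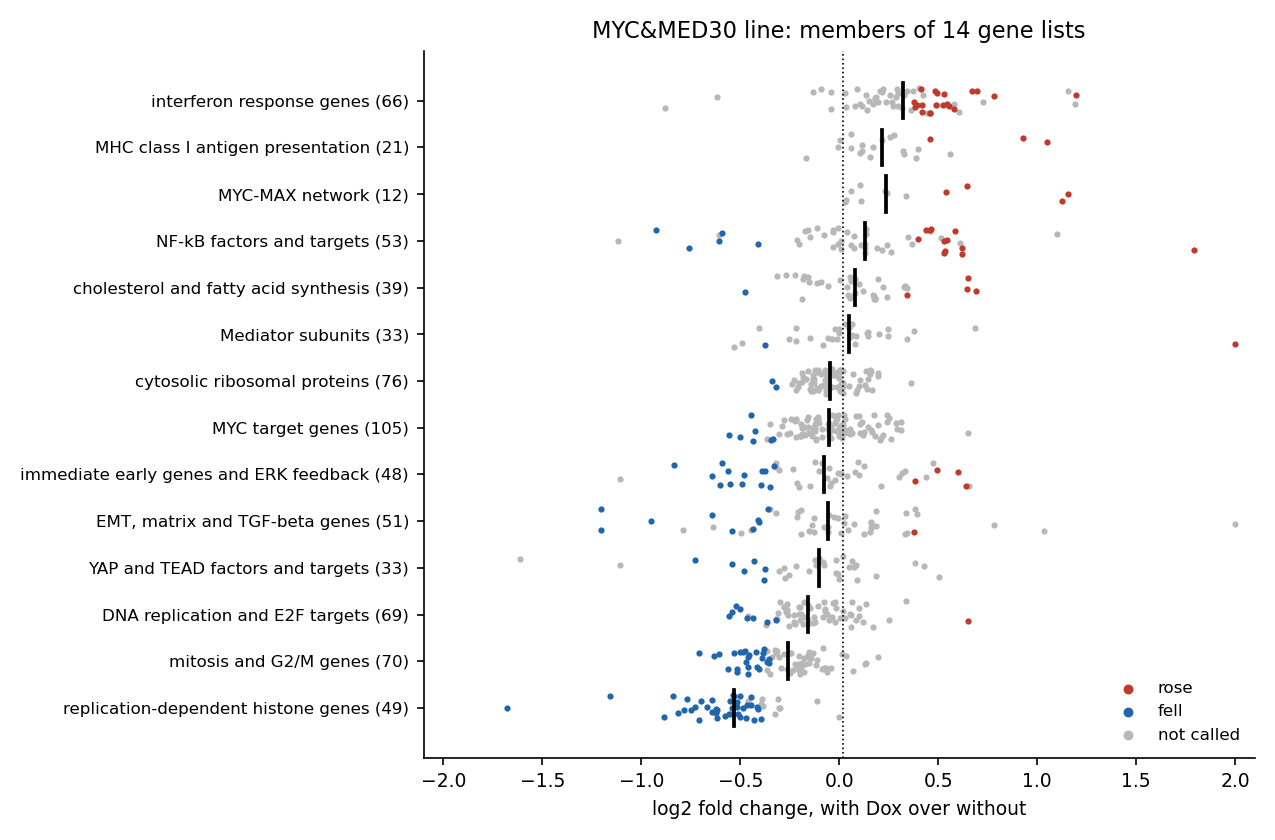
Log2 fold change with Dox of the tested members of 14 gene lists (number of members in brackets), with red points for genes that rose, blue for genes that fell and grey for the rest; black bars mark list medians, the dotted line the median of all genes, and 2 points beyond the axis are drawn at its edge. Histone and mitosis genes lie to the left and interferon genes to the right, while MYC target genes and ribosomal proteins lie around the median of all genes.

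No MYC target gene passed the test upward. Of 105 tested, 0 rose and 7 fell at an adjusted p under 0.05, with a median of -0.05, beside 3.65% and 3.09% of all genes. At an unadjusted p under 0.05 in edgeR, 6 lay higher and 18 lower, beside 3731 of all 19318 genes tested in either direction. Against control 1 alone 0 rose and 12 fell, with a median of -0.11. DESeq2 called 0 rises on 4 and on 8 libraries, and 4 falls on 4 libraries. On the 4 libraries edgeR called 3 rises and 19 falls, and with library size as the scaling 3 rises and 10 falls. The 7 included the helicase subunits MCM4 and MCM5, CBX3 (-0.43), PHB2 (-0.44) and EEF1B2 (-0.44). Without control 1 the median of the list was 0.07, beside 0.17 over all genes. With both controls these medians were -0.05 and 0.02, and against control 1 alone -0.11 and -0.01. The sign of the list median thus depended on the control, while it lay below the median of all genes in each of these fits. CACGTG, the E-box of MYC and MAX, was present in 27 of 86 promoters of this list (31.4%), in 9.14% of tested genes, in 9.61% of genes that rose and in 8.37% of genes that fell.

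Of the 101 ribosome biogenesis factors, 4 rose and 1 fell. TWISTNB, a subunit of RNA polymerase I, rose from 30.8 and 20.6 CPM to 61.5 and 65.0 CPM (1.12 ± 0.12, adjusted p = 1.56e-07), and the assembly factor BOP1 rose by 0.53. The same counts, 4 and 1, were found against control 1 alone. The rises numbered 1 without control 1, 2 without Dox 1, Dox 2 or either control labelled MYC, 8 without either Dox library labelled MYC, 1 by DESeq2 on the 4 libraries, 10 by edgeR on these 4 and 11 with library size as the scaling. Of 76 cytosolic ribosomal protein genes 2 fell, RPL6 (-0.34) and RPL32 (-0.32), and 0 rose, beside 3.09% of falls over all genes. Neither was called without control 1, Dox 1, Dox 2 or either control labelled MYC, or with the replicate block (adjusted p = 0.143 and 0.177). In the MYC-MAX network 4 of 12 genes rose and 0 fell, with a median of 0.24. Besides MYC these were MNT, a repressor that competes for MAX (0.64 ± 0.12), MLXIPL, which pairs with MLX and responds to glucose (0.54 ± 0.13), and MYCL (1.13 ± 0.29), which was under 6 CPM in all 4 libraries. The same 4 were called against control 1 alone, and without control 1 only MYC was.

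Mediator genes other than MED30 showed few calls. Of 33 subunit genes, MED30 rose and MED6, a head subunit, fell slightly, from 66.8 and 60.3 CPM to 47.2 and 53.5 CPM (-0.37 ± 0.11, adjusted p = 0.0332). MED6 was not called without control 1, Dox 1 (adjusted p = 0.332), Dox 2 (0.06) or either control labelled MYC, or with the replicate block (adjusted p = 0.0795). The other 31 were not called, and the median was 0.05. Against control 1 alone 4 subunits fell, and without control 1 only MED30 was called. Without Dox 2, 2 subunits rose, and without either Dox library labelled MYC 3 rose and 4 fell. Among 70 genes of polymerase II initiation, pausing and elongation, only the elongation factor ELL was called (0.52 ± 0.11), and its call was lost without Dox 2.

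Most members of the metabolic and stress lists were not called, as was true of most genes. The counts below stand beside 3.65% of rises and 3.09% of falls over all genes tested. Of 39 genes of cholesterol and fatty acid synthesis 4 rose and 1 fell. ME1, which makes NADPH, rose from 145 and 135 CPM to 235 and 223 CPM (0.69 ± 0.10), SREBF1, the lipogenic regulator, from 74.8 and 76.5 CPM to 123 and 114 CPM (0.65 ± 0.11), and FDPS by 0.65. Of 45 glycolysis and hypoxia genes, 2 rose and 3 fell, with PKM up (0.45) and GAPDH (-0.48) and LOXL2 (-0.56) down. Of 45 heat shock and chaperone genes 4 fell, among them DNAJB1 (-0.56) and HSPA8 (-0.40), and 1 rose, HSPA6, which was under 1 CPM in every library. Of 47 ATF4 and amino acid stress genes 3 fell, MTHFD2 (-0.41), SLC1A4 (-0.53) and ATF4 itself (-0.33), and 0 rose. The lysosomal protease CTSC fell (-0.77), with 2 of 66 lysosomal genes rising and 2 falling. Against control 1 alone 2 glycolysis genes rose and 5 fell, and of the lysosomal genes 0 rose and 1 fell. Without control 1, 1 lipid gene rose, 1 chaperone gene fell and no ATF4 gene was called.

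The lists that remain held few calls, apart from the ERBB list. Over all genes tested 3.65% rose and 3.09% fell, so few calls in such short lists say little about their members. None of 28 p53 targets was called, although 3 fell against control 1 alone. Among 33 apoptosis regulators 1 fell, MCL1 (-0.49), which blocks apoptosis. Of 71 genes of the mitochondrial complexes 2 rose, of 42 endoplasmic reticulum stress genes 1 rose, and of 30 small RNA host genes 0 were called. With control 1 as the single control 2 mitochondrial genes rose and 3 fell, 3 apoptosis regulators fell, and 0 stress genes rose and 1 fell. In edgeR at an unadjusted p under 0.05, 3 p53 targets lay higher and 6 lower, and 1 host gene each way, and DESeq2 on the 4 libraries called 1 p53 target, downward, and no host gene. Of 24 driver genes of pancreatic cancer 1 rose, ATM. Of 15 ERBB receptors and ligands EGFR rose (0.44) and NRG1 (-0.50) and HBEGF fell, but EGFR was not called against control 1 alone.

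Called genes lay near each other more often than genes that were not called lay near them. Another rising gene lay within 50 kb of 27.5% of the genes that rose, against 10.2% of those not called. Another falling gene lay within 50 kb of 26% of the genes that fell, against 5.29%, and of 20.6% against 5.23% with histone genes left out. Rising and falling genes were seldom neighbours: 2.64% of the genes that rose had a falling gene within 50 kb. Runs of at least 3 genes with the same call, with gaps of at most 50 kb, numbered 25 for rises and 9 for falls. Genes that were not called could lie within a run. Among the former were OAS1, OAS3 and OAS2 on chromosome 12, NFKB2, PSD and FBXL15 on chromosome 10, and TSNAXIP1, CENPT and NUTF2 on chromosome 16. Among the latter were the histone clusters of chromosome 6, with runs of 20 and 13 genes, and the metallothionein genes MT2A and MT1E with BBS2 on chromosome 16. MT2A fell from 189.6 and 182 CPM to 128 and 119.0 CPM (-0.60 ± 0.10). Polymerases that run past the end of a gene are counted in the next one on the same strand, and their part in these runs was not tested.

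Chromosome 19 held 12.3% of the genes that rose, 3.84% of those that fell and 7.15% of all tested genes. Chromosome 6 held 10.5% of the genes that fell, against 5.36% of tested genes, and with histone genes left out 4.68% against 5.13%. Of the genes also called against control 1 alone, chromosome 19 held 12.1% of the rises and chromosome 6 10.5% of the falls. The median length was 36.7 kb for genes that rose, 29.2 kb for those that fell and 33.4 kb for all. Of protein-coding genes other than histones, 2.98% of those under 5 kb and 4.15% of those over 50 kb rose, and 2.50% and 3.17% fell.

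The response was set against that of the 4 libraries labelled MYC, with and without the same dose of Dox. In those, MYC went down with Dox (-0.57) and MED30 went up (4.46), which goes against their label, so the comparison is with the libraries labelled MYC and not with induction of MYC alone. In a test of the difference, 138 genes (0.714%) changed more upward in the MYC&MED30 line and 69 (0.357%) more downward. These counts rest on single libraries: they were 93 and 60 without control 2, 15 and 3 without control 1, 572 and 304 without the first Dox library labelled MYC and 246 and 204 without the second. Leaving out Dox 1 or Dox 2 gave 41 and 21 or 43 and 22, and leaving out a control labelled MYC 37 and 13 or 43 and 14. In the libraries labelled MYC the log2 fold change was 4.85 for IL23R, 3.36 for FAM20C, 3.49 for ENOX1 and 2.60 for TSNAXIP1. No difference was found for ENOX1 (0.01 ± 0.22, adjusted p = 0.996) or MED30 (0.32 ± 0.17, adjusted p = 0.45). The rises of IL23R (difference 1.63, adjusted p = 0.00189), TSNAXIP1 (0.88, adjusted p = 0.00342) and FAM20C (1.24, adjusted p = 2.75e-05) were larger in the MYC&MED30 line. For IRAK2 no difference was found (0.25, adjusted p = 0.568).

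The differences counted within lists are from the main fit alone, beside 0.714% more upward and 0.357% more downward over all genes. Among the lists, NF-kB genes had 8 members that changed more upward and 0 more downward in the MYC&MED30 line. They were NFKB1, REL, NFKBIA, TNFAIP3, BIRC2, BIRC3, CSF1 and CFLAR. Of these, NFKB1, REL and TNFAIP3 were called as rises in the MYC&MED30 line, and the others were not called there. In the libraries labelled MYC, 10 of the 53 NF-kB genes fell and 6 rose. REL differed by 0.65 (adjusted p = 0.0232) and NFKB1 by 0.60 (adjusted p = 0.0232). Interferon genes went the other way, with 11 members more downward and 2 more upward, since 35 of 66 rose in the libraries labelled MYC. OAS1 differed by -0.98 (adjusted p = 0.0232) and IFI6 by -0.79 (adjusted p = 0.0117), while IFI27 differed by 1.42 (adjusted p = 0.00859). Histone genes fell in both sets, 39 and 26 of 49, and only H3C1, H4C2 and H4C13 passed the test of the difference. Of the cholesterol and fatty acid list 15 genes fell in the libraries labelled MYC, and 4 members, SREBF1 and IDI1 among them, changed more upward in the MYC&MED30 line. In the MYC-MAX network MYC and MNT (0.66, adjusted p = 0.0226) changed more upward.

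**Figure D5:**
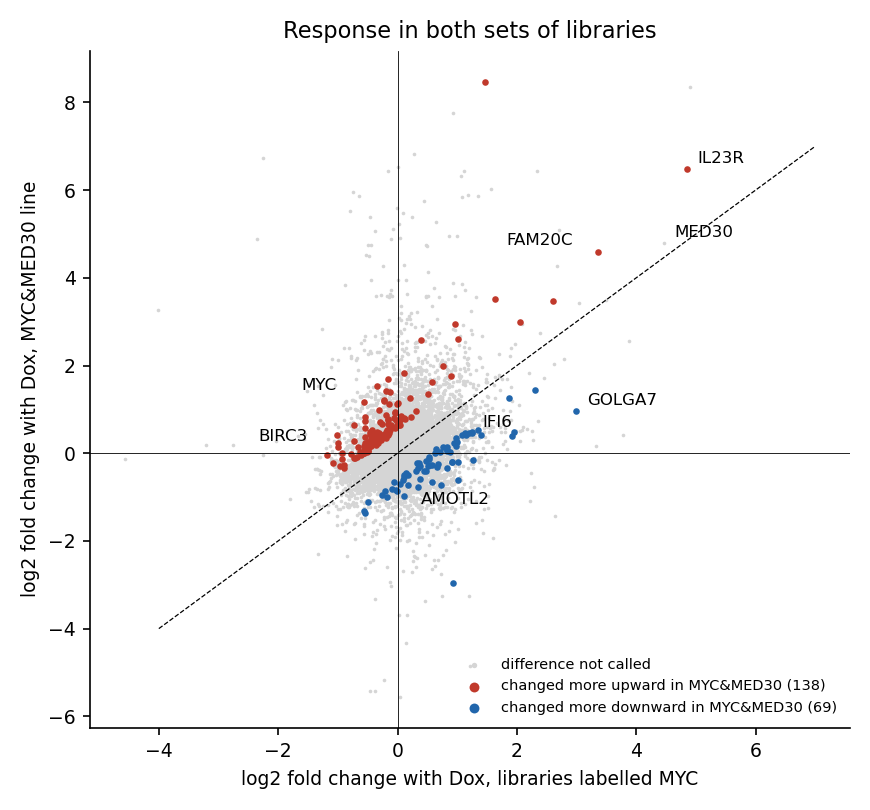
Log2 fold change with Dox in the MYC&MED30 line (vertical axis) against that in the libraries labelled MYC (horizontal axis), with 1 point per tested gene and a dashed line of equality. Red points (138) changed more upward and blue points (69) more downward in the MYC&MED30 line, with MYC above the line and GOLGA7 below it, and MED30 close to it.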

How the data were processed

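PRO-seq was analysed in the 4 libraries of the MYC&MED30 line, with the 4 libraries labelled MYC in the same fit. Per the labels and the study's methods, trimming used Trim Galore, alignment to hg38 used Bowtie2 (no version given), and featureCounts 2.0.3 assigned sense-strand reads to whole genes. The authors tested with DESeq2 2.11.40.8. The deposited tables hold raw counts of 28278 symbols. Tables of the libraries labelled MED30 hold scaled values and were not used here. Members, gene lists and rules were chosen with earlier results of these data known.

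In R 4.3.3, genes were tested with edgeR 4.0.16 and limma 3.58.1 (TMM, filterByExpr with a minimum count of 10, glmQLFit and glmQLFTest, 4 groups) and adjusted by Benjamini-Hochberg over all genes tested. A gene was called at an adjusted p under 0.05. The fit was repeated without control 2. The difference from the libraries labelled MYC was an interaction contrast. Replicates differed by more than sampling noise (chi-square per gene 1.61 between the controls and 4.16 between the Dox libraries). Gene lists, written by hand from general knowledge, got no test and are given as counts and medians. Named were 12 genes that the study singled out, the 12 largest changes each way among genes called in both fits with a mean log2 CPM above 2 and groups apart, the members of each list with the smallest p, the 5 genes each way with the smallest p of the difference, and runs of neighbours. Further list members were named after their values were seen. A few genes that these rules give are not reported here.

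Coordinates are from GENCODE, matched for 25763 symbols by name and for 433 by an older symbol or identifier. Promoters of 18730 genes are from RefSeq. Motifs were searched on both strands, and those of interferon genes, CCAAT and TTTGAA were added after seeing the data. Scripts were tested on simulated data. Alternatives were other scalings, filters and DESeq2 1.42.0, 4 libraries alone, a replicate block, thinned counts, no small RNA genes, and leaving out each library.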

Additional observations from a re-analysis of the deposited data

Results flagged for a closer look

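Each gene here changed by another amount in the MYC&MED30 line than in the libraries labelled MYC, by edgeR's test of the difference between both responses. MYC differed by 1.72 on the log2 scale (adjusted p = 3.68e-09), with 1.16 in the MYC&MED30 line and -0.57 in the libraries labelled MYC. FAM20C differed by 1.24 (adjusted p = 2.75e-05), from rises of 4.598 and 3.36. BIRC3, an inhibitor of apoptosis and target of NF-kB, differed by 1.13 (adjusted p = 1.36e-05), since it fell by 1.00 in the libraries labelled MYC and was not called in the MYC&MED30 line (0.13). LRRC49 differed by 1.00 (adjusted p = 7.66e-05) and USP2-AS1 by 1.26 (adjusted p = 8.71e-05), the latter from a rise of 1.12 in the MYC&MED30 line.

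In the other direction, GOLGA7, which palmitoylates RAS with its partner, differed by -2.03 (adjusted p = 4.14e-09): it rose in both sets, by 0.97 and by 3.00. AMOTL2 differed by -0.90 (adjusted p = 0.000297), from a fall of 0.73 in the MYC&MED30 line and 0.18 in the other set. DHX35 differed by -0.98 (adjusted p = 0.000162), ENO2 by -1.21 (adjusted p = 0.00102) and ALDH3A2 by -0.86 (adjusted p = 0.00132), none of which was called in the MYC&MED30 line.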

How the results depend on the processing

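MYC and MED30 rose under every alternative run. Counts of rises and falls (706 and 596) moved more. The 4 libraries alone gave 1054 and 1101, of which 927 and 1039 held against control 1 alone. Library size alone gave 1176 rises, 892 of them held, and 185 genes that changed more downward than in the libraries labelled MYC. DESeq2 called 213 rises on 4 libraries (206 held) and 394 on 8 (299 held). Counts thinned to the depth of control 2 gave 183 and 290, with 78 and 148 held and differences of 11 up and 7 down. Control 1 with both Dox libraries, an alternative chosen after seeing the data, gave 1069 and 1305. Differences from the libraries labelled MYC numbered 208 up and 108 down with no filter, 216 and 115 with 10 counts in every library, and 115 down with upper-quartile scaling. Leaving out 1 library gave 121 to 1198 rises and 45 to 1212 falls, with 225 to 1120 and 186 to 1179 held, and 15 to 572 and 3 to 304 for the differences.

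Deviations between replicates of the controls and of the Dox libraries correlated at -0.0838 over 9912 genes. Counting noise of the shallow control 2 weakens such a correlation, so it cannot show whether replicate numbers paired the samples. The replicate block gave 550 rises and 379 falls, with 326 and 218 held and 90 differences upward.

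Of the genes named, MLXIPL reversed with thinned counts (-0.083). Of those not called, ENO2 ranged from -0.31 to 0.75 over libraries left out, ALDH3A2 from -0.015 to 0.162, PABPC1 from -0.183 to 0.039, PGK1 from -0.45 to 0.02 and NFKBIA from -0.165 to 0.005. The cause was not tested. The shallow control 2, with a median of 22 counts per tested gene, limits the precision of every contrast.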

Other observations

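Other genes of the runs of neighbouring rises and falls, which belong to none of the lists, were as follows. On chromosome 1 S100A13, a calcium-binding protein released without a signal peptide, rose from 57.8 and 70.6 CPM to 95.7 and 87.0 CPM (log2 fold change 0.59 ± 0.11, adjusted p = 0.000695). Its neighbours S100A14 (1.89 ± 0.44) and S100A16 (0.91 ± 0.26) rose from levels of at most 5.15 CPM. On chromosome X the receptor subunits CSF2RA (1.63 ± 0.21) and IL3RA (0.41 ± 0.10), which bind GM-CSF and interleukin-3, rose together, and IL3RA was at 114 and 128 CPM without Dox and at 165 and 149.5 CPM with it.

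Further rises lay on chromosomes 15, 17 and 19. KDM6B, a demethylase of histone H3, went from 40.7 and 34.6 CPM to 65.1 and 63.3 CPM (0.70 ± 0.12, adjusted p = 0.000269). PRMT1, an arginine methyltransferase, went from 43.1 and 39.0 CPM to 62.4 and 63.9 CPM (0.58 ± 0.11, adjusted p = 0.000805). EHD4, which works in endosomes, went from 33.2 and 31.6 CPM to 58.4 and 66.9 CPM (0.93 ± 0.11, adjusted p = 2.08e-06), and SYNM, an intermediate filament protein, rose by 0.65. BCL10, an adaptor that leads to NF-kB, fell from 171.9 and 163 CPM to 109.9 and 118 CPM (-0.57 ± 0.10, adjusted p = 0.000538). The groups of these 5 did not overlap, which held for 688 of the 706 genes that rose and 578 of the 596 that fell. Without control 1 the log2 fold change was 0.91 for KDM6B, 0.72 for PRMT1, 0.82 for SYNM and -0.50 for BCL10. It was 0.39 for S100A13 and 0.32 for IL3RA in that fit, beside a median of 0.17 over all genes.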
